A study of Mus musculus with 6 samples.

Results

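The metabotropic glutamate receptor genes Grm2, Grm3, Grm4, Grm5, Grm7 and Grm8 were compared between the hippocampus of 3 wild-type (WT) and 3 transgenic (TG) mice. These 6 genes were taken by their symbols from the 54532 genes of the RNA-seq table, and other genes of the receptor family were not analysed here. In the TG mice, Slc1a2, which encodes the astrocytic glutamate transporter GLT-1, bears G82R and L85P. Both changes were placed in the mouse gene itself with CRISPR/Cas9 on a C57BL/6N background, and the controls were WT littermates. Whether the TG mice carried the changes on 1 or on both alleles, and the age of the mice, were not given in the sources used here. The libraries are named by genotype and mouse number (WT1, TG1 and so on), the RNA of each is not stated to be pooled, and p-values measure the spread between these libraries.

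Metabotropic glutamate receptors are G protein-coupled receptors that sense synaptic glutamate and act as pairs. Group I receptors, here mGluR5 (Grm5), couple to Gq, activate phospholipase C and release calcium from intracellular stores, and in the hippocampus they lie mainly on the postsynaptic side of excitatory synapses. Group II receptors (mGluR2 and mGluR3, from Grm2 and Grm3) and group III receptors (mGluR4, mGluR7 and mGluR8, from Grm4, Grm7 and Grm8) couple to Gi/o, lower cyclic AMP and largely act as presynaptic brakes on release. Astrocytes also carry mGluR3. Their ligand is the glutamate that GLT-1 clears.

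No difference between WT and TG mice passed the test for any of the 6 genes. On the log2(FPKM + 0.1) scale, where FPKM is the read count scaled to gene length and library size, the TG mean was above the WT mean by 0.01 for Grm3 to 0.27 for Grm8. The smallest adjusted p was 0.789, for Grm2 and Grm8 (limma, a linear model with variances moderated across all genes). At an adjusted p under 0.05, 0 of 6 members were called, as against 0.00955% of the 20952 genes tested. At an unadjusted p under 0.05, it was 0 of 6 members and 5.91% of the genes tested (3.13% higher and 2.78% lower in TG mice), and the alternative test, limma-voom on the reads behind the FPKM, also called 0 of 6 at an unadjusted p under 0.05.

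The coding sequences show how alike the receptors are and whether their reads can be told apart. For Grm5 and the group III genes, 60 coding bases are printed from the most conserved stretch of the alignment, which lies in the part that encodes the transmembrane helices. The sequences come from GENCODE transcripts in GRCm38 and run 5′ to 3′ on the coding strand, and capitals mark the 40 of 60 bases identical in these 4 genes.
Grm5: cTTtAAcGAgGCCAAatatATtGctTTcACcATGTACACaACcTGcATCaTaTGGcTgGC
Grm4: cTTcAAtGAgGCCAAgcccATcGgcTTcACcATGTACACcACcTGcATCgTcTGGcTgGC
Grm7: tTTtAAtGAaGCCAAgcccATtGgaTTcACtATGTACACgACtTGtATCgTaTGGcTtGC
Grm8: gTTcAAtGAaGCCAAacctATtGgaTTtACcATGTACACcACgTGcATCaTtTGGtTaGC

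Each stretch lies within a single coding exon. The stretch of Grm5 is at chr7:88074801-88074860 on the plus strand, in exon 7 of 8 of the transcript used. Among the group III genes, the stretch of Grm4 is at chr17:27434576-27434635 (minus strand, exon 9 of 11), that of Grm7 at chr6:111358978-111359037 (plus strand, exon 8 of 10) and that of Grm8 at chr6:27363128-27363187 (minus strand, exon 9 of 11). Over the whole alignment, 27.9% of the 2489 gap-free positions were identical in all 6 genes. The aligned coding bases were 69.1% identical between Grm7 and Grm8, 68.0% between Grm4 and Grm8, 67.8% between Grm4 and Grm7 and 66.4% between Grm2 and Grm3. The pairs from different groups had 50.6% to 56.5% identity, so the sequences fell into the receptor groups. The longest run of identical bases between any 2 members was 27 bases, between Grm3 and Grm4, and no stretch of 50 bases of any member's transcripts occurred in another member. Among 50-base stretches, none was therefore ambiguous between 2 members.

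The 6 libraries held 16081281 to 18751057 reads on genes, which were recovered from the FPKM and the gene lengths. All 6 libraries had reads of the Y-linked gene Ddx3y (FPKM 10.6 to 12.3) and nearly none of Xist (at most 0.0181), so the sexes of the mice were alike in both groups. Slc1a2 itself had 177 to 202 FPKM in WT mice against 207 to 222 in TG mice, which does not check the labels, since FPKM do not hold the changed bases. Every TG library was above every WT library, as in 6.35% of the genes tested (adjusted p = 0.789 in limma). These values are RNA. By Western blot, the paper reports GLT-1 protein in the TG hippocampus as nearly abolished. Markers of dentate granule cells, pyramidal cells and interneurons were present in every library. TG1 and TG2 stood apart by choroid plexus RNA, whose 12 markers summed to an FPKM of 57.9 to 82.7 in the WT libraries, 1218 in TG1, 3852 in TG2 and 66.3 in TG3. With a score of these markers as a covariate, no Grm gene passed an unadjusted p of 0.05, and the log2 differences were 0.03 for Grm3 to 0.57 for Grm4. The score went in part with genotype, at -0.64 to -0.08 in WT libraries, 2.65 in TG1, 4.21 in TG2 and -0.35 in TG3. Standard errors were larger with it, 0.0997 against 0.0618 for Grm2. The share of all genes passing was 3.36% with the score and 5.91% without it, so this fit is a weak check. In bulk RNA, fewer cells of a type and less RNA per cell cannot be told apart.

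The receptor genes kept the same order in all 6 libraries. From the highest to the lowest they were Grm5, Grm2, Grm3, Grm7, Grm4 and Grm8, and the ranges of neighbours did not overlap. On the FPKM scale, the mean level of Grm5 was 1.95 times that of Grm2, Grm2 was 1.34 times Grm3, and Grm3 was 1.30 times Grm7. Larger steps followed, with Grm7 at 3.30 times Grm4 and Grm4 at 3.01 times Grm8. Among the genes tested, Grm5 stood at percentile 91.6 of mean FPKM and Grm8 at 34.1. These levels rest on 4811 to 5447 reads per library for Grm5, but on 171 to 370 for Grm4 and 106 to 169 for Grm8.

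**Figure D1:**
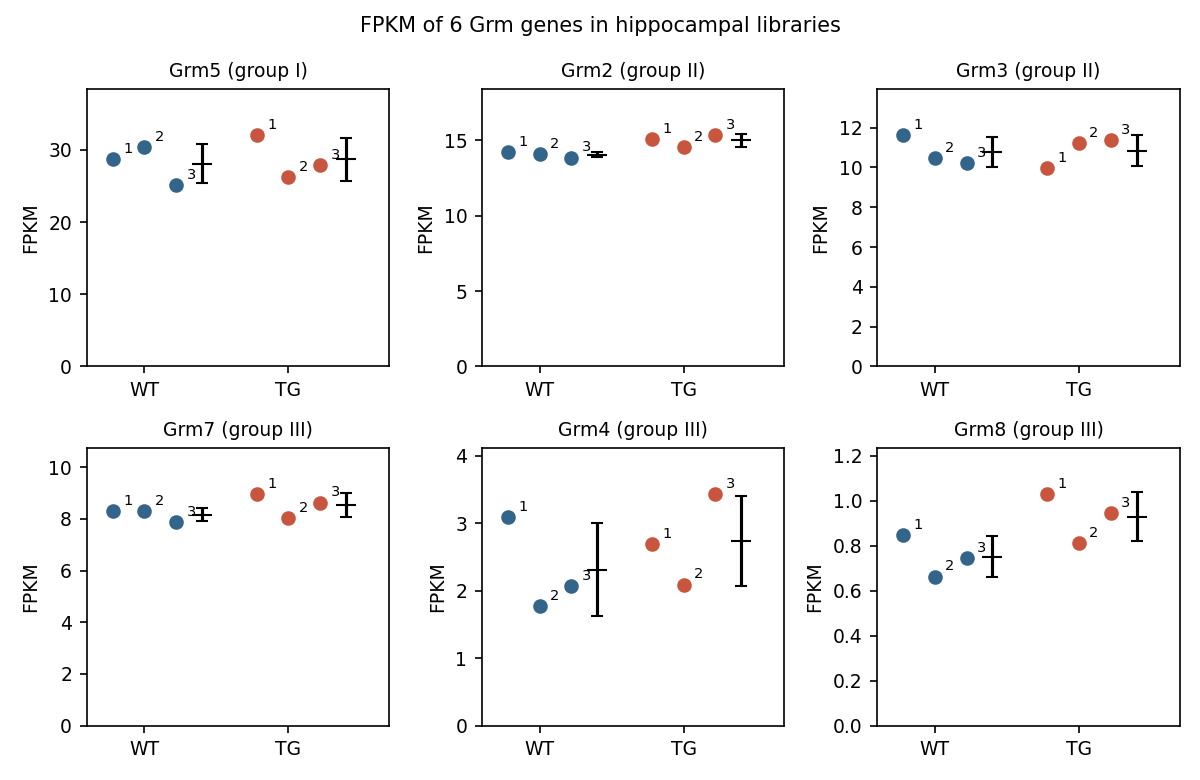
FPKM of the 6 Grm genes (y axes, from 0) in the WT (blue) and TG (red) libraries, with the replicate number beside each point and the mean ± SD of 3 libraries in black. The TG points lie above all WT points in Grm2, and the groups overlap in the other panels.

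Grm5 encodes mGluR5, the group I receptor of this set (ENSMUSG00000049583, chromosome 7 from 87584168 to 88134907, plus strand). Its FPKM was 28.8 in WT1, 30.4 in WT2 and 25.1 in WT3, against 32.0 in TG1, 26.2 in TG2 and 27.9 in TG3. TG1 was the highest and WT3 the lowest, and the groups overlapped across most of their range. The means were 28.1 ± 2.68 in WT against 28.7 ± 3.01 in TG mice (SD, n = 3 each). The log2 difference was 0.03 with a standard error of 0.104 (adjusted p = 0.948 in limma), and its 95% interval ran from a TG level of 0.863 times to 1.21 times the WT level. Without TG1 the difference was -0.05 and without WT3 it was -0.05, so its direction rested on single libraries.

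Grm2 encodes mGluR2, the group II receptor known from the mossy fibre terminals of dentate granule cells (ENSMUSG00000023192, chromosome 9 from 106643095 to 106656082, minus strand). Its FPKM was 14.2 in WT1, 14.1 in WT2 and 13.8 in WT3, against 15.1 in TG1, 14.5 in TG2 and 15.3 in TG3. Every TG library was above every WT library, which was the case for 1 of 6 members and for 6.35% of the genes tested. The reverse order was seen in 0 of 6 members and 5.71% of the genes tested, so that the groups lay apart in 12.1% of the genes tested. The gap was small, as the TG mean of 15.0 ± 0.410 was 1.07 times the WT mean of 14.1 ± 0.196 (SD, n = 3 each). The log2 difference was 0.09 (standard error 0.0618, adjusted p = 0.789 in limma), and the 95% interval ran from 0.964 to 1.18 times. The residual SD of Grm2, 0.0312 on the log2 scale, was lower than that of all but 1.32% of the 4458 genes within 2-fold of its mean FPKM, whose median was 0.113. The moderated test draws such a small SD towards that of genes at the same level. Over the 15 alternatives the difference ran from 0.08 to 0.13. Its sign could not turn when a library was left out, since every TG library was above every WT library.

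Levels of dentate granule cell markers are given beside Grm2. Of the 7 markers, 3 (Stxbp6, Tdo2 and Calb1, named after their values were seen) had an unadjusted p under 0.05 with lower values in TG mice, as against 2.78% of the genes tested, and their adjusted p was 0.786. Lct and Dsp, named likewise, had log2 differences of 0.13 and 0.01. The sum over the 7 markers was an FPKM of 125.5 to 153 in WT mice against 119 to 131 in TG mice. C1ql2, the most abundant of them, lay between 52.6 and 66.8 in WT mice and between 48.0 and 55.6 in TG mice. The part of these markers in the Grm2 values was not tested. An antisense gene, Gm28111, overlaps Grm2 and shares 8.53% of its 50-base stretches when both strands are counted. Its own FPKM was 0.0801 at most.

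Grm3 encodes mGluR3, the other group II receptor, found in neurons and astrocytes (ENSMUSG00000003974, chromosome 5 from 9485541 to 9725170, minus strand). Its FPKM was 11.6 in WT1, 10.5 in WT2 and 10.2 in WT3, against 9.97, 11.2 and 11.4 in TG1, TG2 and TG3. The highest value was in WT1 and the lowest in TG1, so the ranges of the groups nearly coincided. The means were 10.8 ± 0.741 in WT against 10.9 ± 0.767 in TG mice (SD, n = 3 each), with a log2 difference of 0.01 (standard error 0.0864, adjusted p = 0.984 in limma). The 95% interval ran from 0.875 to 1.16 times the WT level. Of the 10 astrocyte markers, none passed an unadjusted p of 0.05, and they summed to an FPKM of 542 to 619 in WT against 542 to 571 in TG mice. Aldoc, the most abundant of these markers, lay between 249 and 315 in WT mice and between 251 and 258 in TG mice.

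Grm7 encodes mGluR7, a low-affinity receptor of the presynaptic active zone (ENSMUSG00000056755, chromosome 6 from 110645581 to 111567230, plus strand). Its FPKM was 8.30 in WT1, 8.31 in WT2 and 7.87 in WT3, against 8.94 in TG1, 8.02 in TG2 and 8.63 in TG3. TG1 and TG3 were above all WT libraries, and TG2 lay within the WT range. The means were 8.16 ± 0.252 and 8.53 ± 0.470 (SD, n = 3 each), a log2 difference of 0.06 (standard error 0.0757, adjusted p = 0.843 in limma). The 95% interval ran from 0.923 to 1.18 times the WT level. The difference was 0.028 without TG1, 0.037 without WT3, 0.11 without TG2 and 0.10 with the choroid plexus score. The antisense gene Gm20387 overlaps Grm7 and shares 1.37% of its 50-base stretches, with an FPKM of 0.886 to 1.22 of its own.

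Grm4 encodes mGluR4, a presynaptic receptor best known from the cerebellum (ENSMUSG00000063239, chromosome 17 from 27422387 to 27521403, minus strand). Its FPKM was 3.09 in WT1, 1.77 in WT2 and 2.07 in WT3, against 2.70 in TG1, 2.09 in TG2 and 3.43 in TG3. It was the most variable of the 6 genes, since the highest library had 1.94 times the lowest, and both groups spanned high and low values. The coefficient of variation came to 30.0% among WT and 24.5% among TG libraries, whereas counting alone would give 6.14% at the mean read number. Its residual SD of 0.372 was above that of 87.5% of the 4928 genes within 2-fold of its mean FPKM. The means were 2.31 ± 0.694 and 2.74 ± 0.670 (SD, n = 3 each), with a log2 difference of 0.24 (standard error 0.245, adjusted p = 0.809 in limma) and a 95% interval from 0.795 to 1.77 times. Leaving out single libraries moved the difference from 0.07 without TG3 and 0.08 without WT2 to 0.42 without TG2 and 0.47 without WT1. With a score of the choroid plexus markers as a covariate it was 0.57 with a standard error of 0.313.

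Levels of markers of the neighbouring thalamus and habenula are given beside Grm4. Their summed FPKM over 9 genes was 19.3 in TG3, 17.0 in WT1 and 16.5 in TG1, the 3 libraries with the most Grm4, and 15.2 in TG2, 14.5 in WT3 and 14.6 in WT2, the 3 with the least. Single markers did not all follow this order. Slc17a6 was at 5.76 in TG3 and at 2.18 to 3.80 in the other libraries, Lhx9 was lowest in TG3 (1.42) and WT1 (1.52), and Prkcd, the most abundant over all libraries, was higher in WT2 (4.12) than in TG1 (3.77). Pou4f1 was too low to be tested, and none of the other 8 passed an unadjusted p of 0.05 between WT and TG mice. This list was set beside Grm4, and all its genes but Prkcd named, after the values were seen, and its part in the Grm4 values was not tested.

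Grm8 encodes mGluR8, a presynaptic receptor with high affinity for glutamate (ENSMUSG00000024211, chromosome 6 from 27275119 to 28135178, minus strand). Its FPKM was 0.847 in WT1, 0.663 in WT2 and 0.745 in WT3, against 1.03 in TG1, 0.812 in TG2 and 0.945 in TG3. TG1 and TG3 were above all WT libraries, while TG2 fell below WT1. The TG mean of 0.928 ± 0.109 was 1.24 times the WT mean of 0.752 ± 0.0922 (SD, n = 3 each), the largest ratio of the 6 genes. The log2 difference was 0.27 (standard error 0.185, adjusted p = 0.789 in limma), and the 95% interval ran from 0.893 to 1.63 times. With a pseudocount of 1 the log2 difference was 0.14. At 106 to 169 reads, counting alone gives a coefficient of variation of 8.29%, against the 12.3% and 11.8% measured in WT and TG mice. The interval includes equal levels in both groups, so the difference of Grm8 could not be told from 0 with these libraries.

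**Figure D2:**
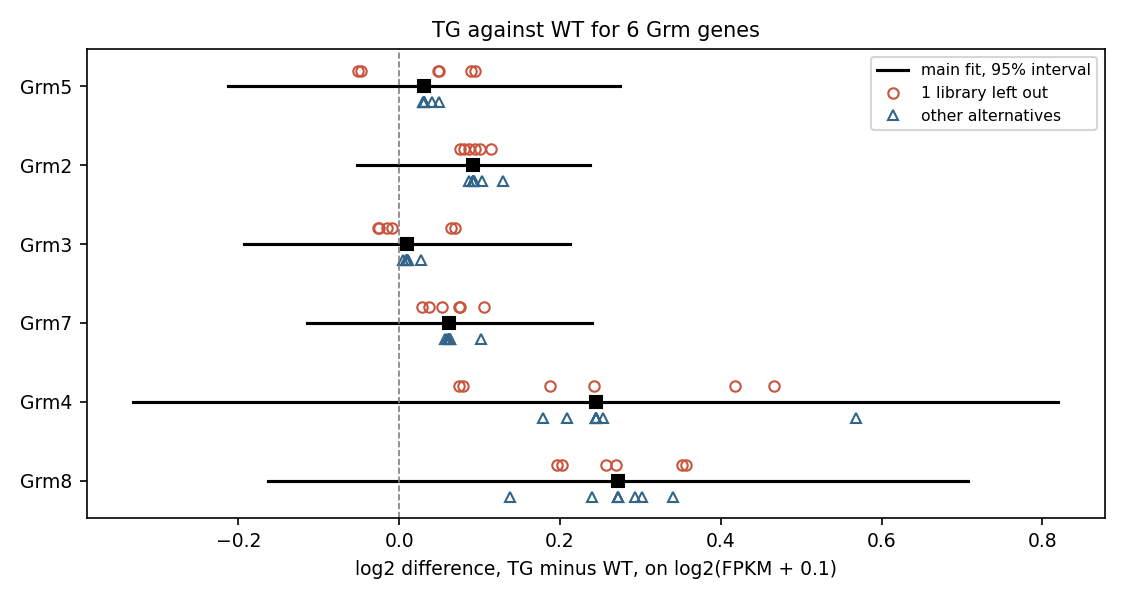
Log2 difference between TG and WT mice (x axis, on log2(FPKM + 0.1)) for each Grm gene, with the 95% interval of limma (black), the values with 1 library left out (red circles) and the other alternatives (blue triangles). All 6 intervals include 0, and those of Grm4 and Grm8 are the widest.

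Seen together, the 6 members had a median log2 difference of 0.08, as against -0.002 over all genes tested, and the difference was positive in 6 of 6 members and in 49.6% of the genes tested, although for Grm3 and Grm5 it turned negative without single libraries. The median of the members was 0.059 without WT3 and 0.11 without TG2. The libraries did not split by genotype in this respect. The number of members above their WT mean was 6 in WT1, 3 in WT2 and 0 in WT3, against 5, 3 and 5 in TG1, TG2 and TG3. The median deviation from the WT mean ran from -0.06 in WT3 to 0.07 in WT1 and from 0.01 in TG2 to 0.16 in TG1.

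**Figure D3:**
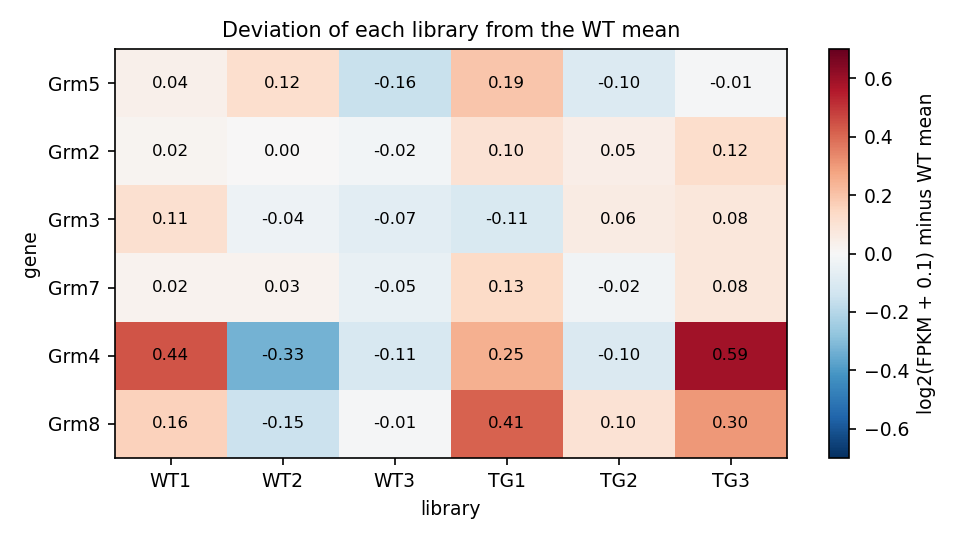
Deviation of log2(FPKM + 0.1) from the mean of the WT libraries (colour and printed value) for each Grm gene (rows) in each library (columns). The strongest deviations are those of Grm4 and Grm8, up to 0.59 for Grm4 in TG3, and Grm2 and Grm8 are above 0 in all TG libraries.

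The summed FPKM of the 6 genes lay between 59.9 and 66.8 in WT mice and between 62.9 and 69.8 in TG mice. Grm5 made up 42.0% to 46.2% of this sum in WT mice and 41.3% to 45.9% in TG mice. The group II genes made up 37.4% to 40.2% and 35.9% to 41.0%, and the group III genes 16.4% to 18.3% and 17.4% to 19.2%. The WT and TG libraries overlapped in the share of each receptor group. Within group III, the share of Grm4 ran from 2.70% in WT2 to 5.07% in TG3, with overlapping groups. The share of Grm8 was 1.01% to 1.27% in WT against 1.29% to 1.47% in TG libraries, which did not overlap, and this difference was not tested. The share also depends on the other 5 genes, and the FPKM of Grm8 itself overlapped (0.812 in TG2, 0.847 in WT1). By FPKM, the groups lay apart in 12.1% of the genes tested.

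**Figure D4:**
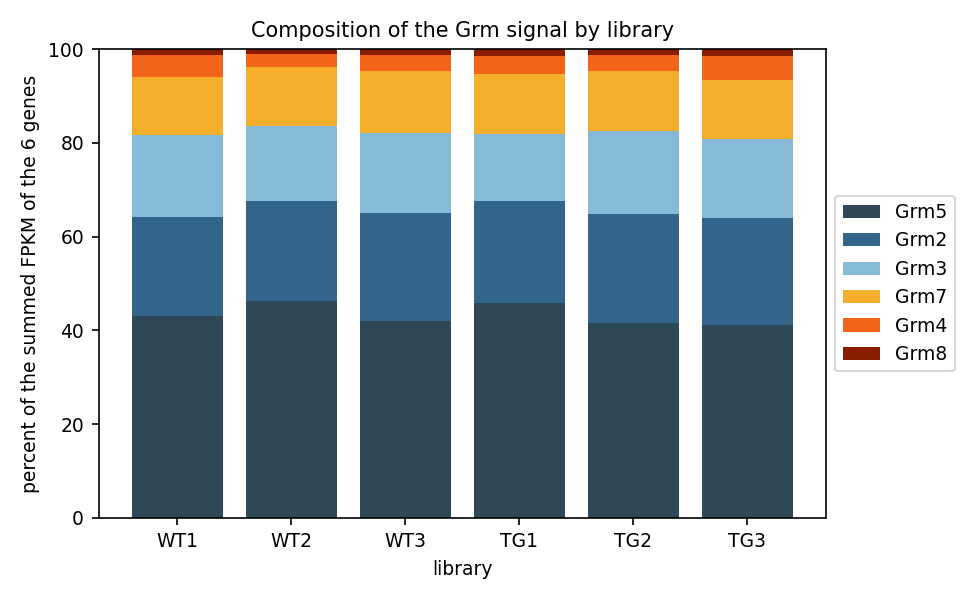
Share of each Grm gene (percent, stacked from 0 to 100) in the summed FPKM of the 6 genes, for each library. Grm5 takes 41.3% to 46.2% in every library, and the thin Grm8 share is 1.01% to 1.27% in WT and 1.29% to 1.47% in TG libraries. The FPKM of Grm8 itself overlaps between the groups.

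The genes that act with these receptors were compared on 4 lists of 61 genes in all, each of which was tested. None was called at an adjusted p under 0.05 in limma. With an unadjusted p under 0.05 as the threshold, 1 of 61 was higher and 0 of 61 were lower in TG mice, as against 3.13% and 2.78% of the genes tested. With limma-voom on the reads, 3 of 61 and 6.22% of the genes tested passed the same threshold. The medians of the lists rested in part on single libraries.

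The Gq pathway of group I receptors held 17 genes, with G protein subunits, phospholipases C, IP3 receptors, protein kinases C and Trpc channels. Its median log2 difference was 0.14, with 14 genes above 0 and 3 below, and the median was 0.053 without WT3 and 0.086 without TG1. The gene past the unadjusted threshold was Itpr1, the IP3 receptor that releases calcium from the endoplasmic reticulum in neurons. Its FPKM was 23.9 in WT1, 24.7 in WT2 and 20.3 in WT3, against 29.0, 25.7 and 26.6 in TG1, TG2 and TG3. Every TG library was above every WT library, as in 3 of the 17 genes and 6.35% of the genes tested. The reverse was seen in 0 of the 17 and in 5.71% of the genes tested. The means of Itpr1 were 23.0 ± 2.32 and 27.1 ± 1.74 (SD, n = 3 each). The log2 difference was 0.24 (standard error 0.0935), which did not pass the adjustment over all genes (adjusted p = 0.786 in limma). It also missed the unadjusted threshold without WT1, WT3, TG1 or TG3, without the trend in the variance model and with the choroid plexus score, where it lay between 0.16 and 0.27.

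The Gi/o pathway of group II and III receptors held 21 genes, with G protein subunits, adenylyl cyclases and the GIRK potassium channels. Its median log2 difference was 0.02, with 12 genes above 0 and 9 below, and none passed the unadjusted threshold. The median turned to -0.015 without WT3 and -0.013 without TG1. Gnaz, an inhibitory G protein alpha subunit, had the smallest p of the list (adjusted p = 0.789 in limma). Its means were 20.7 ± 1.93 FPKM in WT against 23.6 ± 2.20 in TG mice (SD, n = 3 each). Adcy1, a calcium-stimulated adenylyl cyclase and the most abundant gene of the list, ranged from 84.9 to 138 FPKM in WT mice and from 126 to 144 in TG mice. Its groups overlapped, and its log2 difference of 0.31 became 0.12 without WT3, its lowest library, and 0.47 without WT2, where its unadjusted p was under 0.05.

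Among 13 scaffolds and partners of the receptors, 10 were above 0 and 3 below, with a median of 0.12 and none past the unadjusted threshold. The median was 0.026 without WT3, 0.21 without WT2 and 0.19 without TG2. Homer2, of the Homer proteins that tie mGluR5 to the postsynaptic scaffold, had the smallest p of these (adjusted p = 0.786 in limma). Its means were 6.86 ± 0.711 FPKM in WT against 8.08 ± 0.806 in TG mice (SD, n = 3 each). Ncdn, which encodes the mGluR5 partner norbin, was the most abundant, with 952 ± 58.6 and 957 ± 119 (SD, n = 3 each). Of 10 genes of receptor desensitization and G protein shut-off, 5 were above 0 and 5 below, with a median of 0.00 (from -0.033 without WT2 to 0.058 without TG2) and none past the unadjusted threshold. Arrb2, a beta-arrestin, had the smallest p of these (adjusted p = 0.789 in limma), with a log2 difference of -0.15 and a standard error of 0.103. The receptor kinase gene Grk2, the most abundant, had 50.6 ± 2.84 and 51.7 ± 1.64 (SD, n = 3 each).

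**Figure D5:**
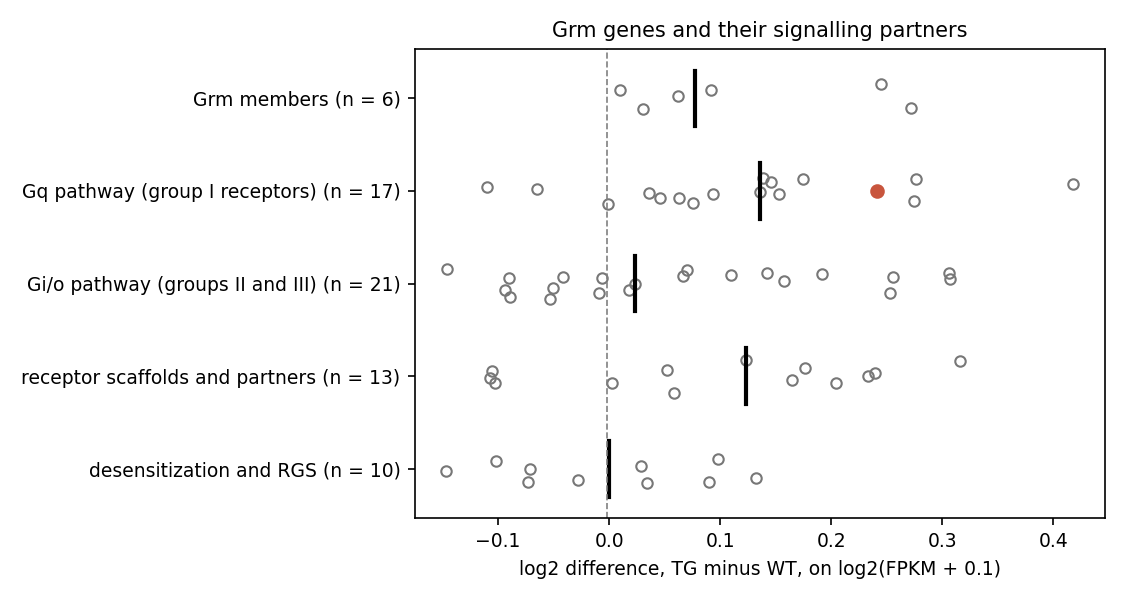
Log2 difference between TG and WT mice (x axis) of each gene (circles) of the Grm genes and of the 4 lists of signalling partners, with list medians as black bars and the median of all genes tested as a dashed line. Itpr1, filled in red, is the gene with an unadjusted p under 0.05, and the list medians lie between 0.00 and 0.14.

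Genes with the most similar profile over the 6 libraries were looked up among protein-coding genes whose FPKM averaged 1 or more. Likeness was the root-mean-square difference between profiles after each was centred and divided by its SD, where 0 means the same shape. The nearest to Grm5 were Prkce (0.0563), a protein kinase C gene that is on none of the lists, and Lamc3 (0.0987). Xiap (0.0713) and Sp4 (0.0901) were nearest to Grm2, and Kdm8 (0.0839) and Pold2 (0.0857) to Grm3. For the group III genes, Pdcd6ip (0.125) and Tnpo2 (0.140) were nearest to Grm7, Galnt13 (0.144) and Unc13c (0.212) to Grm4, and Larp4b (0.139) and Tbc1d8 (0.166) to Grm8. At least 11916 genes were searched for each member over 6 libraries, so these values describe the libraries and carry no test.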

How the data were processed

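RNA of the hippocampus of 3 WT and 3 TG mice was sequenced on an Illumina instrument. The authors counted reads per gene with HTSeq, computed FPKM from read count and gene length, and deposited these FPKM for 54532 genes in a column per library. The labels name GRCm38, and the aligner and strand setting were not given in the sources used here. The paper names Trizol and a NEBNext kit, the labels an RNeasy and a SMARTer kit. Of the gene IDs, 54495 were found in a GRCm38 annotation (GENCODE), 53585 of them with the same start and end.

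Reads per gene were recovered from the deposited FPKM and the lengths, and 100% of the values came out whole (tolerance 0.05 reads). For a gene 1 kb long, 3 reads correspond to 0.160 to 0.190 FPKM, which covers counting error only. No pair of libraries agreed within sampling noise (chi-square per degree of freedom of 5.17 or more). The pairs with WT3 lay furthest apart, at 16.1 to 32.6, against 5.17 to 14.3 for the other pairs. The closest pair was WT1 and TG3. limma 3.58.1 in R 4.3.3 was run on log2(FPKM + 0.1) with a trend on expression, for the 20952 genes whose FPKM averaged 0.1 or more, with Benjamini-Hochberg adjustment over all of them and a threshold of 0.05. Fold changes on this scale understate those of low genes. The fit was checked on simulated data with changes larger than those of any member, so the check does not cover differences of their size. Alternatives were the pseudocount, the filter, quantile normalization, the variance model, limma-voom on recovered reads, each library left out, a replicate block and a choroid plexus score as a covariate.

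Coding sequences were aligned with mafft 7.526, using the principal transcript with the longest coding sequence, and shared 50-base stretches were counted over all annotated transcripts on both strands. Python 3.11.15 was used. The members and lists were chosen with earlier results of these data known. Named by rule were all members, 2 genes per pathway list (lowest p, highest level), the highest marker per marker list and the 2 nearest profiles of each member. Some items that the rule names are not reported here.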

Additional observations from a re-analysis of the deposited data

How the results depend on the processing

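Under all 15 alternatives, 0 Grm genes and 0 genes of the pathway lists had an adjusted p under 0.05, and 0 Grm genes had an unadjusted p under 0.05. Grm8 was not tested with a filter at a mean FPKM of 1. The log2 differences of Grm2, Grm4, Grm7 and Grm8 were positive in each alternative that gave a value. The filter, the variance model and the replicate block cannot change a log2 difference, only its p-value. For Grm2, leaving out a library could not turn the sign either. With single libraries left out, that of Grm3 ran from -0.026 to 0.069 (negative without WT2, WT3, TG2 or TG3), that of Grm5 from -0.051 to 0.094 (negative without WT3 or TG1), that of Ncdn from -0.10 to 0.053 (negative without WT1 or TG1) and that of Grk2 from -0.013 to 0.061 (negative without WT2). Ncdn was also at -0.022 with the choroid plexus score. Of the 61 partners, 1 had an unadjusted p under 0.05, and the number was 3 without WT2 (6.35% of all genes), 4 without TG2 (4.82%) and 0 without each of the others (4.19% to 6.56%). The median of the Gq list was 0.075 with a filter at a mean FPKM of 1, 0.080 with a pseudocount of 1 and 0.21 with the choroid plexus score, and that of the Gi/o list 0.082 with quantile normalization.

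Over all genes, 2 were called at an adjusted p under 0.05. The number was 0 with a pseudocount of 1 or 0.01, without the filter, with limma-voom, with the choroid plexus score and with the replicate block, 1 with a filter at a mean FPKM of 1, 9 without a trend in the variance model, and 0 to 6 when each library was left out. The cause was not tested. Across genes, the deviations of same-numbered WT and TG libraries from their group means correlated at 0.0125, 0.0434 and 0.00314. Those of differently numbered libraries correlated at -0.0274 to 0.0159. Deviations centred on a mean of 3 libraries cannot settle whether the numbers pair the libraries. The replicate block left 0 Grm genes called. Counting error was largest for Grm8, with 106 to 169 reads per library, whereas the spread of Grm4 between libraries was well above its counting error.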

Other observations

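Markers of other cells and regions had overlapping groups of summed FPKM unless stated. Those of mature oligodendrocytes summed to 653 to 818 in WT and 509 to 753 in TG mice, with 222 to 288 and 196 to 287 for Mbp of myelin, and TG1 was the lowest library. All 8 of these markers had log2 differences below 0, with a median of -0.29 and -0.07 for Mbp. Opalin, named after its values were seen, was at 8.83 to 12.6 and 4.40 to 7.47. Its log2 difference was -0.77 (unadjusted p = 0.0098, adjusted p = 0.786 in limma). It was the 1 of 8 that was lower at an unadjusted p under 0.05, as against 2.78% of the genes tested. Markers of oligodendrocyte precursors summed to 87.1 to 96.4 and 84.6 to 86.1, which did not overlap, and this difference was not tested. Among single genes tested, the groups lay apart in 12.1%. Olig1, the most abundant of these 6 markers, was at 51.7 to 64.2 and 51.6 to 51.8. The markers did not share a direction. Log2 differences were 0.42 for Gpr17, 0.10 for Cspg4, -0.005 for Pdgfra, -0.02 for C1ql1, -0.15 for Olig1 and -0.17 for Olig2. In limma, the unadjusted p was 0.033 for Gpr17 and 0.045 for Olig2, and the adjusted p was 0.786 for both. Markers of microglia summed to 130 to 146 and 118 to 161. C1qa of the complement system was at 45.2 to 50.5 and 40.8 to 57.4. Of the 7 microglia markers, 1 was higher and 0 were lower at an unadjusted p under 0.05, as against 3.13% and 2.78% of the genes tested. This was Csf1r, named after its values were seen (log2 difference 0.19, unadjusted p = 0.045, adjusted p = 0.786 in limma). P2ry12, named likewise, was at -0.14. Pyramidal cell markers summed to 287 to 354 and 289 to 331 (Neurod6 72.3 to 91.0 and 71.5 to 74.8), and interneuron markers to 649 to 892 and 653 to 743 (Sst 256 to 356 and 269 to 321). Neocortical markers summed to 51.5 to 53.1 and 49.5 to 60.9, with Fezf2 at 13.4 to 16.0 and 12.6 to 17.6. Of these 7 markers, 1 was higher and 0 were lower at an unadjusted p under 0.05. This was Cux2, named after its values were seen, at 2.26 to 2.79 and 3.24 to 4.03. Its log2 difference was 0.48 (unadjusted p = 0.0084, adjusted p = 0.786 in limma). Lamp5, named likewise, was at -0.10. Ttr, the most abundant choroid plexus marker, was at 49.8 to 73.0 in WT mice, 1168 in TG1, 3705 in TG2 and 57.7 in TG3.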
